A study of Drosophila melanogaster with 54 samples.

Results

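A set of 17 genes named only by number, of 17481 gene entries counted in single embryos, had their counts mainly at the blastoderm of Drosophila melanogaster. CG15125 is among them through reads of the opposite strand, and lncRNA:CR44504 is a known microRNA precursor. They were selected on measured values. A gene was taken if its symbol was a CG or CR number, also after a prefix, and if it met 3 thresholds on mean CPM (a gene's counts scaled to 1000000 gene counts per embryo). The mean at stage 5 had to be at least 10 CPM, and the means at stage 4 and at stage 8 had to be at most 20% of the stage 5 mean. CG and CR numbers are the serial names that the fly annotation gives to protein-coding and noncoding genes without a name of their own. Of 8958 genes with such a symbol, 1377 reached 10 CPM at stage 5, 123 of those also met the threshold at stage 4, and 17 met all 3.

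RNA was sequenced from 54 whole embryos, each a library of its own. Stages 5 and 10 had 9 embryos each, stages 13 and 15 had 8 each, and stages 4, 6, 8 and 12 had 5 each. The labels give each embryo a stage and a letter. They give no treatment, strain, genotype or sex and nothing on parents or collections, and p-values therefore reflect variation among the embryos sampled, which may be technical in part. Gene counts ran from 1632448 to 12863155 per embryo with a median of 4713817, so that 1 CPM rested on about 4.71 reads. The stage labels were checked against marker genes. The maternal RNAs osk, dhd, exu and twe summed to 67.9 to 155 CPM in the stage 5 embryos and 4504 to 6745 CPM in the stage 4 embryos. The segmental genes en, mid, hh and gsb summed to 325 to 490.0 CPM in the stage 6 embryos and 2.59 to 8.72 CPM in the stage 5 embryos. In the stage 10 embryos the maternal RNAs had a median sum of 20.3 CPM, but embryo C held 309 CPM and embryo B 93.9 CPM. These 2 also had the highest sums of the 17 genes at stage 10, 67.1 and 59.4 CPM, against 37.4 to 54.9 CPM in the other 7. Without either of these embryos the counts of genes called at stage 10 against stage 6 were as with all embryos. Embryos G and H of stage 4 stood apart from the other 3 in the genes described here, and the same 17 genes met the thresholds without both of them. Levels are relative to all RNA of an embryo's genes, and in whole embryos fewer expressing cells and less RNA per cell cannot be told apart.

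A fly embryo first divides its nuclei in a shared cytoplasm under the control of maternal RNA. At the blastoderm the nuclei reach the surface, transcription of the zygotic genome begins on a large scale, and membranes grow inward between the nuclei to make cells, which is called cellularization. Gastrulation follows at stage 6 and germ band extension by stage 8. Many of the first zygotic genes are short and lack introns, which is generally understood to let their transcripts be finished within the brief cycles of nuclear division. Their messages are often short-lived, and maternal messages are cleared over the same period, in part by microRNAs of the zygote.

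All 17 genes together summed to 23.4 ± 32.7 CPM at stage 4, reached 2696 ± 306 CPM at stage 5 and had dropped to 513 ± 77.4 CPM at stage 6 and 202 ± 39.2 CPM at stage 8 (SD over the embryos of each stage). From stage 10 on the sum was 50.4 ± 9.42 CPM, then 23.1 ± 3.90 CPM at stage 12, 11.3 ± 1.03 CPM at stage 13 and 8.42 ± 2.02 CPM at stage 15. Single stage 5 embryos held between 2261 and 3162 CPM of these RNAs. The values at stages 4, 5 and 8 chose the genes, so they are a description and were not tested. No gene had a stage 4, stage 6 or stage 8 embryo as high as its lowest stage 5 embryo. For stages 4 and 8 the selection nearly demands this. Stage 6 lies between stages 5 and 8, so its lack of overlap is close to the selection too. The share over all genes was not counted.

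**Figure D1:**
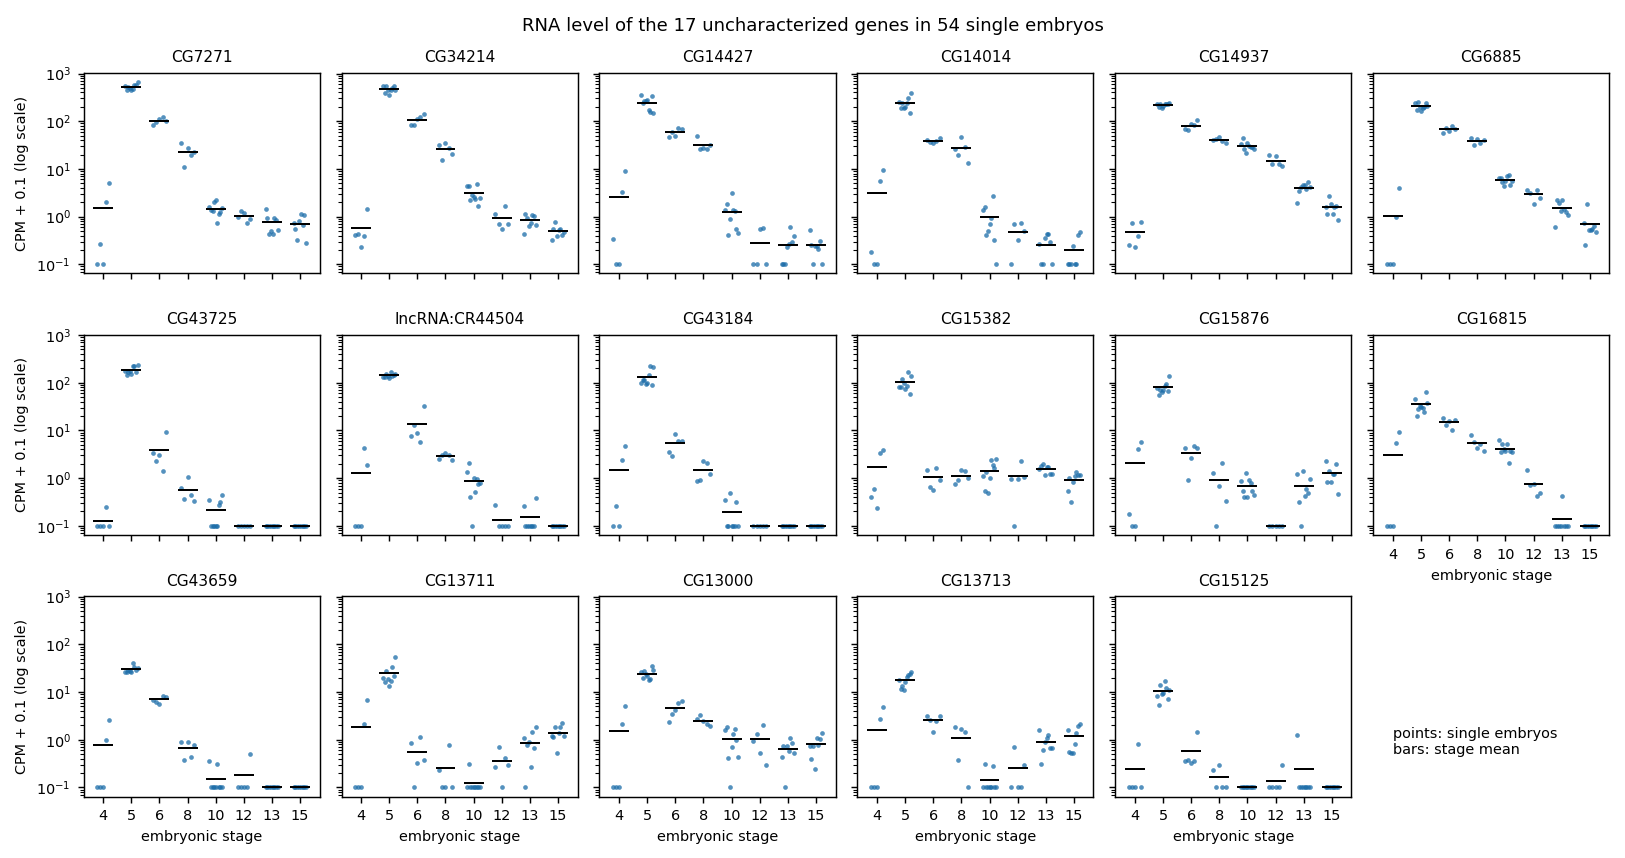
RNA level of each of the 17 genes (CPM + 0.1, log scale) against embryonic stage, with a point per embryo and a bar at the stage mean. All genes peak at stage 5. CG14937 still averaged 30.3 CPM at stage 10, and CG43725, lncRNA:CR44504, CG43184, CG16815, CG43659 and CG15125 had 0 reads at stage 15.

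CG7271 and CG34214 had the most counts, and their stage 5 levels spanned a narrow range. CG7271 (FBgn0036791, chromosome 3L, 18588759 to 18590165, + strand, 1 exon, a protein of 427 residues) had a lowest, median and highest level of 440.4, 526 and 653 CPM in the 9 stage 5 embryos. Its 5 stage 6 embryos held 81.3, 94.0, 111, 125 and 100.2 CPM, and its 5 stage 8 embryos 34.5, 10.6, 27.3, 19.5 and 22.7 CPM. The 3 stages did not overlap. CG34214 (FBgn0085243, 2R, 24665427 to 24666022, - strand, 2 exons, 148 residues) had 361, 457 and 552 CPM as its lowest, median and highest at stage 5. Its stage 6 embryos held 82.1, 83.4, 111, 125 and 139 CPM and its stage 8 embryos 31.6, 14.9, 34.5, 26.9 and 20.2 CPM. Per kilobase of exon, CG34214 led with 880.3 CPM per kb at stage 5, ahead of CG43725 with 414, CG43184 with 408 and CG7271 with 373. Coordinates are those of the annotation build BDGP6.54, and the annotation used gives no role for either protein.

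Another 4 protein-coding genes averaged between 208 and 246 CPM at stage 5. CG14427 (FBgn0029931, X, 7040603 to 7041769, + strand, 1 exon, 252 residues) averaged 246 ± 76.9 CPM (SD, n = 9). CG14014 (FBgn0031718, 2L, 5549709 to 5550835, - strand, 1 exon, 328 residues) averaged 240.1 ± 72.5 CPM. CG14937 (FBgn0032377, 2L, 11792412 to 11794086, - strand, 2 exons, 445 residues) averaged 219 ± 17.2 CPM, with the smallest coefficient of variation of the 17 genes, 7.86%. RefSeq lists it under the synonym FBXO17, and F-box proteins as a class choose substrates for ubiquitin ligases. CG6885 (FBgn0036810, 3L, 18744488 to 18745699, + strand, 1 exon, 378 residues) averaged 208 ± 31.3 CPM. CG14937 and CG6885 were the genes nearest to the stage 8 threshold, with 18.4% and 18.6% of their stage 5 means at stage 8.

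The only noncoding gene among the 17 was lncRNA:CR44504 (FBgn0265697, 2R, 19659645 to 19661847, - strand, 1 exon of 2203 bases). RefSeq describes it as the primary transcript of a microRNA cluster, and the annotation places mir-309, mir-3, mir-286, mir-4, mir-5, mir-6-1, mir-6-2 and mir-6-3 inside it on the same strand. The cluster is known for its part in clearing maternal messages after the zygotic genome becomes active. The counts are of long RNA, so they give the level of the precursor and not of the mature microRNAs. It ranged from 125 to 166 CPM with a median of 142 in the stage 5 embryos, a coefficient of variation of 8.90%, the next smallest of the 17. In the stage 6 embryos it held 7.67, 12.7, 8.75, 5.68 and 31.9 CPM, and in the stage 8 embryos 2.38, 2.99, 3.31, 3.03 and 2.29 CPM. Stage 6 embryo H stood above the other 4, and stage 8 embryos were closely grouped.

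The 6 genes with the least RNA left at stage 6 were CG15382, CG13711, CG43725, CG43184, CG15876 and CG15125, of which all but CG15125 have a single exon. CG43725 (FBgn0263971, 2L, 11075513 to 11075962, + strand, 64 residues) held 3.27, 2.22, 2.99, 1.29 and 9.28 CPM in the stage 6 embryos, against 147, 174 and 233 CPM as its lowest, median and highest at stage 5. Its stage 6 mean was 2.05% of its stage 5 mean. CG15382 (FBgn0031393, 2L, 2155753 to 2156790, + strand, 157 residues) held 1.38, 0.554, 0.461, 1.55 and 0.819 CPM in the stage 6 embryos, against 56.8, 87.0 and 172 CPM at stage 5, which left 0.937% of the stage 5 mean. For both, every stage 6 embryo lay far below every stage 5 embryo. CG13711 (FBgn0035572, 3L, 4757883 to 4758708, + strand, 127 residues) retained 1.85% at stage 6, and CG43184 (FBgn0262813, 3L, 13837756 to 13838080, + strand, 81 residues) 4.02%. CG15876 (FBgn0035569, 3L, 4694205 to 4694845, - strand, 138 residues) retained 4.07% of its 79.9 ± 24.1 CPM, and CG15125 4.65%.

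At the other end, 6 genes kept over 20% of their stage 5 mean at stage 6. They were CG16815 with 42.0%, CG14937 with 36.9%, CG6885 with 32.3%, CG14427 with 24.2%, CG43659 with 23.0% and CG34214 with 22.9%. CG16815 (FBgn0032491, 2L, 13229832 to 13230549, + strand, 1 exon, 192 residues) held 18.4, 13.0, 15.4, 10.3 and 16.4 CPM in the stage 6 embryos, against 20, 30.6 and 64.9 CPM as its lowest, median and highest at stage 5. Those 2 ranges lay side by side without overlap. CG43659 (FBgn0263707, 2R, 23079380 to 23079715, - strand, 1 exon, 86 residues) fell to 1.91% at stage 8 after 23.0% at stage 6, while CG14427 had 13.0% and CG14014 11.1% at stage 8. Stage 8 embryos overlapped stage 6 embryos for 7 genes, CG14427, CG14014, CG15382, CG15876, CG13711, CG13000 and CG13713. Some of these rested on few reads, with 24 at stage 6 and 23 at stage 8 for CG15382, and 12 and 3 for CG13711. The share of all genes that overlap was not counted. Over the 17 genes the median was 4.37% of the stage 5 mean at stage 8 and 16.2% at stage 6. No test was made between these stages, which share embryos with the selection.

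**Figure D2:**
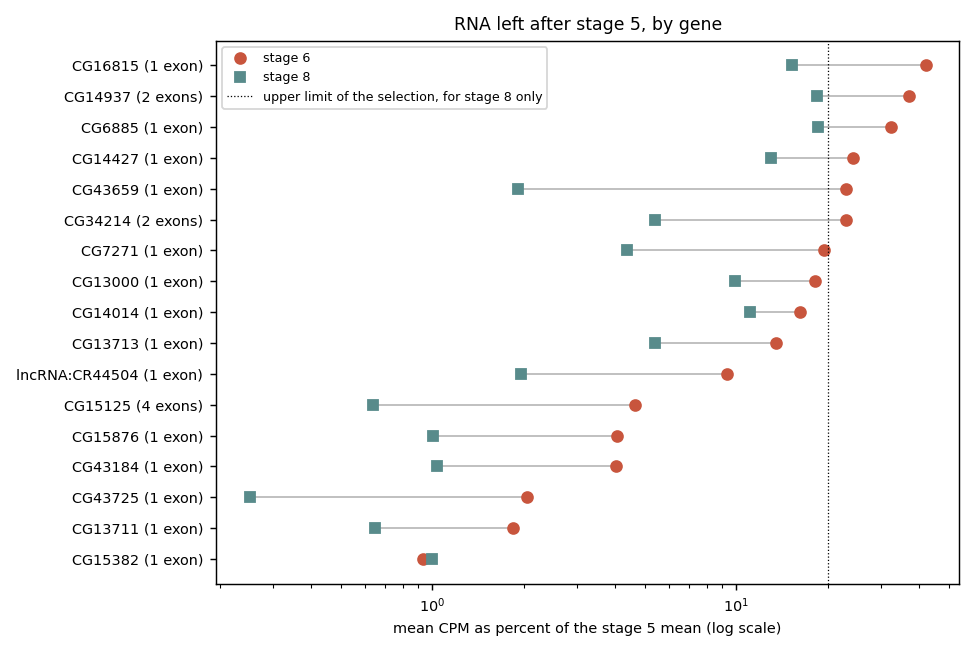
Mean CPM at stage 6 (circles) and stage 8 (squares) as a percent of the stage 5 mean (log scale), a row per gene with its exon number. At stage 6 the genes run from 0.937% for CG15382 to 42.0% for CG16815, and the dotted line at 20% limits stage 8 by the selection, not stage 6.

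The lowest counts were those of CG13000 (FBgn0030807, X, 16947964 to 16948471, - strand, 110 residues), CG13713 (FBgn0042199, 3L, 4697601 to 4698058, + strand, 99 residues) and CG15125 (FBgn0034463, 2R, 19657573 to 19659599, + strand, 282 residues). They averaged 24.4 ± 5.49, 18.1 ± 5.55 and 10.2 ± 3.58 CPM at stage 5 (SD, n = 9) and were the 3 nearest to the threshold of 10 CPM from above. CG15125 lay just inside it, and was left out by the selection without stage 5 embryo D or G, while the other 2 were well above it. Outside it the nearest were CG34266 with 9.62 CPM, CG18265 with 8.05 and CG11929 with 7.62. Near the stage 8 threshold the first genes outside were CG44837 with 22%, lncRNA:CR44295 with 25.9% and CG32655 with 30.2%. Genes outside a threshold are given here only from CG or CR genes that met the other thresholds. On that condition the stage 4 threshold cut nothing close. The genes just inside it were CG16815 with 8.41%, CG13713 with 8.16% and CG13711 with 7.14% of the stage 5 mean at stage 4. The nearest ones outside, CG2924, CG8379 and CG5541, had 62.8%, 64.2% and 72.8%.

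Exon number was not part of the selection, and 14 of the 17 genes (82.4%) had a single exon, the exceptions being CG34214, CG14937 and CG15125. Of the 26 genes with a name of their own that met the same 3 thresholds, 13 (50%) had a single exon. The share was 11.8% among the other 1360 CG or CR genes with at least 10 CPM at stage 5 and 9.54% among all 5410 genes at that level. Median exonic length was 826 bases for the 17 genes, 1426 for the 26 named genes and 2385 for all genes at that level, and median protein length was 152, 378 and 519 residues. The other CG or CR genes at that level had medians of 1972 bases and 446 residues. The 17 genes lay on 3L (6), 2L (5), 2R (4) and X (2, or 11.8%, against 16.9% of all genes at that level). These shares are descriptions, without a test.

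The 26 named genes include slam, bnk and Z600, which act in cellularization or in the last blastoderm cell cycles, and halo. They also include Elba1, Elba2 and Elba3 (subunits of an insulator-binding complex), the patterning genes eve, tll, zen, tsg and scw, and hrg, which encodes a poly(A) polymerase. Of 6 blastoderm and cellularization genes on a list, 4 met the thresholds, namely slam, bnk, halo and Z600. On the same list, nullo averaged only 3.81 CPM at stage 5. Sry-alpha was at 0 CPM at every stage, so whether these counts capture its RNA is not known. Of 48 named early zygotic genes on a wider list, 15 met the thresholds. Of the 48, 44 reached 10 CPM at stage 5, 8 were above 20% of the stage 5 mean at stage 4 and 31 were above it at stage 8. The 17 genes made up 1.23% of CG or CR genes at 10 CPM or more at stage 5, and the 26 made up 0.653% of other genes with a symbol. The 17 genes kept a median of 16.2% of their stage 5 mean at stage 6 and the 26 named genes 22.5%, with ranges of 0.937 to 42.0% and 0.70 to 70.3%.

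Before stage 5, nearly all RNA of these genes came from 2 of the 5 stage 4 embryos. Summed over the 17 genes, embryos B, C, D, G and H of stage 4 held 1.17, 1.77, 0.405, 39.7 and 73.7 CPM. Embryos G and H contained 597 of 626 reads (95.4%). In H the highest single genes were CG14014 with 9.52 CPM, CG16815 with 9.30 and CG14427 with 9.07, while B, C and D held 0 reads of 11, 12 and 14 of the genes. G and H were the 2 highest embryos for 13 genes, the exceptions being CG34214, CG14937, CG43725 and CG15125.

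Other RNAs moved with embryos G and H of stage 4. The maternal thioredoxin RNA dhd was at 2291 and 2417 CPM in G and H and between 3486 and 3794 CPM in B, C and D. The maternal RNAs osk and bcd did not set G apart. They were at 1600.3 and 174 CPM in G, 1343 and 142 CPM in H, and 1541 to 1724 and 157 to 198 CPM in B, C and D. The 26 named genes, without slam, hrg and Elba2, summed to 36.1 and 94.3 CPM in G and H and to 13.3, 3.21 and 2.70 CPM in B, C and D. The part of these embryos' exact age in the stage 4 values was not tested. Without each stage 4, 5 or 8 embryo in turn, 16 to 18 genes met the thresholds.

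The order of the genes at stage 4 was not that at stage 5. CG34214 and CG43725, with 473 ± 68.9 and 186 ± 33.6 CPM at stage 5, had 1.36 CPM and 0 reads in stage 4 embryo H. CG16815, with 35.0 ± 13.6 CPM at stage 5, had 9.30 CPM there, and CG13711, with 24.8 ± 12.7 CPM at stage 5, had 6.80 CPM. As a share of the stage 5 mean, the stage 4 mean ran from 0.0157% for CG43725 to 8.41% for CG16815.

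Within stage 5 the genes varied to different degrees. The coefficient of variation over the 9 embryos ran from 7.86% for CG14937 to 51.3% for CG13711. Embryo J held the highest level of 7 genes, and embryos F and C the lowest of 5 and 4. Over the 136 pairs of genes, Spearman's rank correlation across the 9 embryos had a median of 0.40, was above 0 for 110 pairs and at or above 0.7 for 20. The highest was 0.93, between CG14014 and CG15876. These correlations share libraries and scaling and are a description.

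Embryo J was highest for CG15876 with 137 CPM, against 55.2 to 93.3 CPM in the other 8, and for CG13711 with 54.1 CPM, against 13.5 to 34.0. It also had the most RNA of the cellularization genes slam (7916 CPM, against 4611 to 6984 in the other 8) and bnk (246 CPM, against 48.3 to 189.6). The same held for halo (597 CPM, against 309.8 to 551). The 2 embryos with the most bnk RNA, J and H, were also the 2 highest for CG43184 (216 and 221 CPM, against 91.7 to 149 in the other 7) and CG15382 (141 and 172 CPM, against 56.8 to 122). For CG43184 the value of 149 CPM was that of embryo G. The part of age within stage 5 in these differences was not tested.

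CG14427, on the X, went the other way. Its level was 169, 154 and 149 CPM in embryos G, H and J and between 242 and 360 CPM in the other 6, with no overlap. Its rank correlation with CG43184 was -0.82. The same 3 embryos were set apart by Sxl, the X-linked master switch of female development, with 177, 95.3 and 122 CPM in G, H and J and 1302 to 1757 CPM in the others. The RNA of msl-2, which encodes a subunit of the male dosage compensation complex, was at 408, 438 and 441 CPM in those 3 embryos and 121 to 192 CPM in the others. CG14427 was the only one of the 17 genes lower in G, H and J without overlap, and 5 genes were higher there without overlap. The share of all genes that split these embryos was not counted, so the numbers describe single genes and not the set. CG43184 was at 149 to 221 CPM in G, H and J and 91.7 to 112 CPM in the other 6, CG43725 at 226 to 233 and 147 to 176 CPM, and CG15876 at 84.6 to 137 and 55.2 to 77.4 CPM. The margins were smaller for CG43659, at 31.2 to 41.2 and 25.7 to 29.5 CPM, and CG14937, at 232 to 235 and 189 to 228 CPM. The blastoderm gene halo split the same way, at 501 to 597 and 309.8 to 489 CPM, while slam and bnk overlapped. The labels give no sex, and the parts of sex and of age in these levels were not tested. CG13000, also on the X, had 18.1 and 18.9 CPM in G and H but 29.5 CPM in J, within the 19.4 to 34.3 CPM of the other 6. At stage 6, where Sxl was at 1363 and 1286 CPM in C and G and 261 to 339 in B, D and H, CG14427 had 59.0 and 73.1 CPM in C and G and 46.9 to 68.5 CPM in B, D and H, which overlap.

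**Figure D3:**
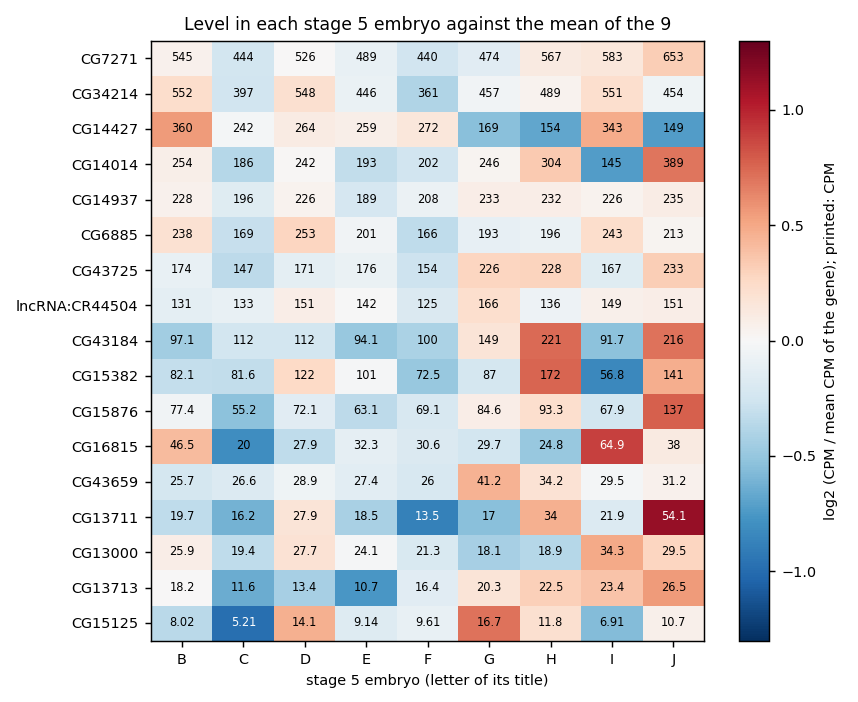
Level of each gene in each of the 9 stage 5 embryos, coloured by log2 of its ratio to the gene's mean over the 9 and printed in CPM. Embryo J is highest for 7 genes, and CG14427 is lowest in G, H and J, where its level is 149 to 169 CPM.

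Most of the libraries keep the strand, which allowed the counts to be assigned. At stage 5, 16 of the 17 genes had at least 95% of their reads on their own strand. The exception was CG15125, with 4 of 492 reads (0.813%) on its own strand and 488 on the other. Its 3′ end lies 45 bases from the 3′ end of lncRNA:CR44504, which is on that other strand, and the antisense gene lncRNA:CR44214 shares 268 exonic bases with it. The 2 genes had a rank correlation of 0.57 over the 9 stage 5 embryos, in which lncRNA:CR44504 had 465 to 783 own-strand reads and the minus strand of CG15125 25 to 103. The level listed for CG15125 therefore does not measure its own transcript, which averaged 0.0943 ± 0.143 CPM at stage 5.

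Own-strand counts also changed the late picture of several genes. CG15382 shares 307 exonic bases with aop, which lies on the opposite strand and encodes an ETS repressor. The counts without strand leave out reads in that shared stretch, and on own-strand counts CG15382 was at 1.45 ± 0.421 CPM at stage 6 and 168 ± 59.8 CPM at stage 5. Its other strand held 1840 reads at stage 10, where aop averaged 936 CPM, and 269 reads at stage 5, where aop averaged 139 CPM. CG34214, which shares 13 exonic bases with ND-19, a gene for a respiratory chain subunit, had 63 of 70 reads at stage 15 on the other strand. CG6885 had 100 of 211 reads on the other strand at stage 10, and CG13000, inside an intron of RhoGAP15B, 35 of 37. On own-strand counts CG6885 was at 2.86 ± 1.83 CPM and CG13000 at 0.0468 ± 0.0947 CPM at stage 10, lower than the 5.76 and 0.913 CPM counted without strand, and CG34214 was at 3.24 ± 1.29 CPM, near the 2.99 CPM without strand.

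**Figure D4:**
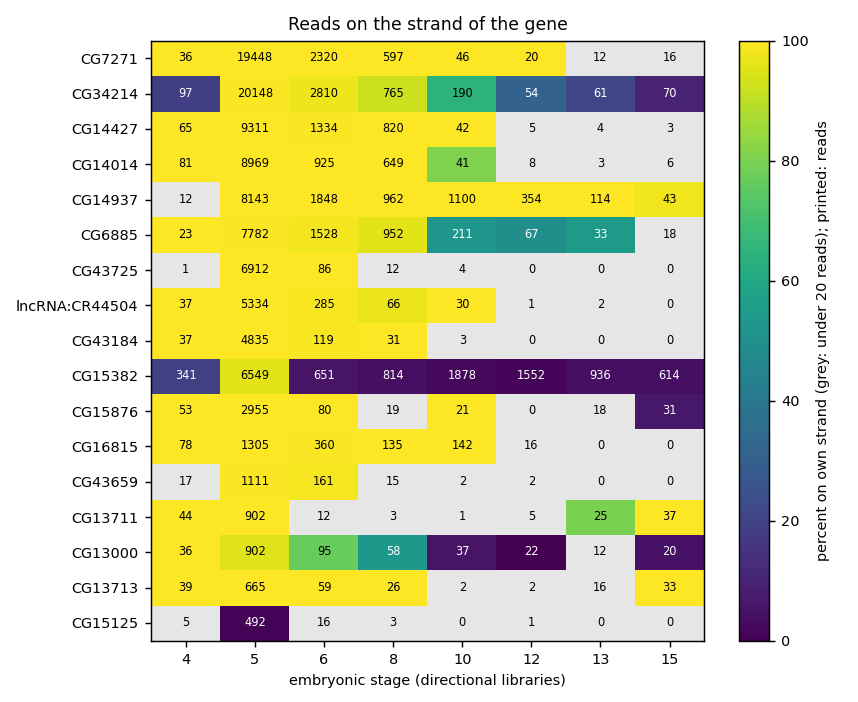
Percent of reads on the strand of the gene, by stage, over the directional libraries, with the read number printed. Fields under 20 reads are grey. At stage 5 all genes but CG15125 are at 95% or above, and CG34214, CG15382, CG6885 and CG13000 are below 80% at stage 10.

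Stages 6, 10 and 15 took no part in the selection, and the change between them was tested with edgeR's quasi-likelihood test over all 54 embryos and 9783 genes, with Benjamini-Hochberg adjustment and a threshold of 0.05. At stage 10, 16 of the 17 genes were lower than at stage 6 and 0 were higher (0 at an unadjusted p under 0.05, and 0 with DESeq2). Of all genes tested, 29.2% were called lower and 30.8% higher. The low-count filter was applied over all stages, those of the selection included. On stages 6 and 10 alone it kept only 10 of the 17 genes, all called lower. CG43725, CG15876, CG13711, CG13000, CG13713 and CG15125, called lower, and CG15382, not called, passed it only with the other stages included. The median log2 change was -4.35 for the 17 genes, or -4.03 with CG15125, which had 0 reads at stage 10, set at its bound, and 0.04 for all genes. The genes had been chosen for a low stage 8 level, which lies between these stages in time, so a fall after stage 6 is close to the selection.

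CG7271 had 1.37 ± 0.465 CPM at stage 10 (n = 9) and 102 ± 16.7 CPM at stage 6 (n = 5), a log2 change of -6.38 ± 0.30 (SE, edgeR adjusted p = 1.10e-24). CG34214 had 2.99 ± 1.14 CPM at stage 10 and 108 ± 25.2 CPM at stage 6, a log2 change of -5.23 ± 0.18 (edgeR adjusted p = 5.71e-30). Both had every stage 10 embryo below every stage 6 embryo. CG14937 fell least among the genes called, to 30.3 ± 6.42 CPM at stage 10, against 80.9 ± 15.7 CPM at stage 6, a log2 change of -1.52 ± 0.14 (edgeR adjusted p = 3.58e-14). Its lowest, median and highest embryos at stage 10 were at 21.3, 28.8 and 43.7 CPM, so no embryo of that stage was under 21.3 CPM.

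CG16815 had 4.08 ± 1.29 CPM at stage 10 and 14.7 ± 3.11 CPM at stage 6, a log2 change of -1.98 ± 0.46 (edgeR adjusted p = 0.000281). The precursor lncRNA:CR44504 had 0.785 ± 0.566 CPM at stage 10 and 13.4 ± 10.7 CPM at stage 6, a log2 change of -4.03 ± 0.47 (edgeR adjusted p = 4.72e-10), and -3.45 at the least when an embryo was left out. CG15382 was the gene not called, with 1.33 ± 0.734 CPM at stage 10 and 0.953 ± 0.490 CPM at stage 6 (log2 change 0.31 ± 0.54, edgeR adjusted p = 0.639). Its stage 6 mean was already the lowest share of the stage 5 mean among the 17 genes. For 5 genes with at most 3 reads in all stage 10 embryos together, reads are given in place of a fold. CG43184 had 3 reads at stage 10 and 119 at stage 6, CG43659 2 and 161, CG13711 1 and 12, CG13713 2 and 59, and CG15125 0 and 10. The call of CG13711 was lost without stage 6 embryo B or G, and that of CG15125 on own-strand counts.

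By stage 10, 10 of the genes averaged under 1 CPM, and at stages 12, 13 and 15 this held for 15, 14 and 13 genes. These are counts without strand. CG15876, among the genes above 1 CPM at stage 15, averaged 0.0616 CPM there on own-strand counts. CG15382, above 1 CPM at stage 10, averaged 0.951 CPM there on own-strand counts. Between stage 15 and stage 10, 8 of the 17 genes were lower at stage 15 and 2 were higher. Of all genes tested, 38.9% were called lower and 45.4% higher, so both shares are to be read against a background in which most genes changed. On stages 10 and 15 alone the low-count filter kept only 3 of the 17 genes, CG14937, CG6885 and CG16815, all called lower. The other genes called passed it only with the other stages included, among them those of the selection. The median log2 change was -2.15 for the 17 genes and 0.11 for all genes. The fitted change of genes with 0 reads at stage 15 depends on the prior count. With 3 such genes at their bound and 3 genes of at most 3 reads at both stages left out, the median of 14 genes was -1.83.

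CG14937 lasted longest. It averaged 14.8 ± 3.92 CPM at stage 12, 3.86 ± 0.992 at stage 13 and 1.46 ± 0.582 at stage 15, and stage 15 against stage 10 gave a log2 change of -4.25 ± 0.17 (edgeR adjusted p = 2.44e-28). CG16815 had 0 reads in all 8 stage 15 embryos. Set against 3 reads over the stage (0.0561 CPM, counting error only), its level was at least 72.7-fold lower at stage 15 than at stage 10, and that of lncRNA:CR44504 at least 14.0-fold lower. CG6885 had 0.595 ± 0.487 CPM at stage 15 and 5.76 ± 1.03 CPM at stage 10 (log2 change -3.24 ± 0.36, edgeR adjusted p = 1.43e-11). On own-strand counts of the directional libraries its log2 change was smaller, -2.27, with 0.668 CPM at stage 15 and 2.86 CPM at stage 10. The other genes called lower were CG34214, CG14427, CG14014 and CG43725, of which CG43725 had 0 reads at stage 15 and 4 at stage 10. The call of CG43725 was lost without stage 10 embryo B, H, I or J, with DESeq2 and on own-strand counts, and that of CG14014 without stage 10 embryo H and on own-strand counts.

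The 2 genes called higher at stage 15 were CG13711 and CG13713, neither of which passed the low-count filter on stages 10 and 15 alone. CG13711 had 73 reads at stage 15 and 1 at stage 10, with 0.434, 1.19 and 2.12 CPM as its lowest, median and highest stage 15 embryo (edgeR adjusted p = 3.55e-05). CG13713 had 59 reads at stage 15 and 2 at stage 10, with 0.434, 0.989 and 2.0 CPM (edgeR adjusted p = 0.000111). All 8 stage 15 embryos held reads of both genes. Both lie inside introns of RhoGEF64C on the same strand, and RhoGEF64C averaged 205 CPM at stage 15 and 0.686 CPM at stage 10. Reads of unspliced RhoGEF64C RNA cannot be told apart from those of the 2 genes by strand. CG15876, inside the same gene on the opposite strand, had 1.19 ± 0.607 CPM at stage 15 and 0.589 ± 0.300 CPM at stage 10 (log2 change 1.12 ± 0.66, edgeR adjusted p = 0.111), and 29 of its 31 stranded reads at stage 15 were on the strand of RhoGEF64C.

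CG15876, CG13713 and CG13711 thus lay within a single gene, and RefSeq lists them under the related synonyms HL3, HL2 and HL5. CG15876 and CG13713 are 2755 bases apart on opposite strands. In the 9 stage 5 embryos their rank correlation was 0.72, and that of CG13711 with CG13713 was 0.60. RhoGEF64C itself averaged 5.86 CPM at stage 5 and 15.2 CPM at stage 4.

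Some of the 17 genes had a neighbour within 10 kb that met the same thresholds. CG7271 lies 2137 bases from term, on the opposite strand, which averaged 486 ± 87.3 CPM at stage 5, 142 ± 30.1 at stage 6 and 34.4 ± 11.4 at stage 8. The corresponding levels of CG7271 were 525 ± 70.4, 102 ± 16.7 and 22.9 ± 8.89 CPM, and across the 9 stage 5 embryos the 2 genes had a rank correlation of 0.92. CG16815 lies 3248 bases from Mabi, which averaged 30.5 ± 9.56 CPM at stage 5, 19.5 ± 5.48 at stage 6 and 5.06 ± 1.71 at stage 10, with a rank correlation of 0.72 at stage 5. Both CG16815 and Mabi kept RNA at stage 10 that most of the 17 genes had lost.

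The microRNA precursor lncRNA:CR44504 lies 2071 bases from hrg on the same strand. The level of hrg was 122 ± 19.3 CPM at stage 4, 1459.9 ± 94.6 CPM at stage 5 and 160.0 ± 10.2 CPM at stage 10, and the rank correlation of the pair over the stage 5 embryos was 0.08. The correlations of neighbours are over 9 embryos that share libraries and are a description.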

How the data were processed

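Total RNA of 54 single embryos was depleted of ribosomal RNA and sequenced. The authors deposited a table of whole-number counts of reads per gene for each embryo, not normalized, with columns without strand and for each strand. STAR 2.5.3a and the build dm6 are named in the submitters' processing notes. The authors' gene annotation is not stated there. The 4 summary entries of each table stayed out of library sizes. Reads of no gene were 0.298 to 10.6% and of several genes 4.17 to 5.64% of those placed on genes or on none. With all 4 summary entries included, gene counts were only 13.1 to 26.5% of all reads. This share was 20.5 to 26.5% in the stage 4 embryos and 13.8 to 17.1% in the stage 5 embryos. Spike-ins were not used here.

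Levels are plain CPM from the counts without strand. The genes, lists and tests were chosen with earlier results of these data known. Symbols, exons and positions came from release 115 of the BDGP6.54 annotation. Genes named in the text were those highest at stage 5, those with the most and least RNA left at stage 6, those highest after stage 8, noncoding genes, genes at the thresholds, genes with under 80% own-strand reads and genes within 10 kb of each other. Sxl, msl-2, slam, bnk and halo, the correlations of neighbours, and the comparison of stage 5 embryos G, H and J with the rest were chosen after their values were seen. Promoter and protein sequences were not analysed here.

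Tests used edgeR 4.0.16 in R 4.3.3: TMM scaling, the default low-count filter, a mean per stage over all 54 embryos, and 2-sided adjusted p-values over 9783 genes, 17 of 17 members included. Among 168 pairs of embryos of 1 stage, counts differed by a chi-square of at least 3.93 per degree of freedom, so all were counted as separate. Libraries were directional in 46 embryos and not in 8, which were 4 of stage 13 and 4 of stage 15. DESeq2 1.42.0, other scaling, no filter, own-strand counts, 2-stage fits, a block by letter and leaving out each embryo were alternatives. Floors and counts cover counting error only.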

Additional observations from a re-analysis of the deposited data

Results flagged for a closer look

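Groups of 5 to 9 embryos at stages 4, 5, 6 and 8 with a mean of at least 1 CPM were screened, 53 in number. By Dixon's ratio, which flags about 1 in 20 groups by chance, 5 of them had an embryo far from the others. In stage 5 embryo J, CG15876 was at 137 CPM, with 93.3 CPM in the next embryo, and CG13711 was at 54.1 CPM, with 34.0 CPM in the next. In stage 6 embryo H, CG43725 was at 9.28 CPM, with 3.27 CPM in the next, and lncRNA:CR44504 was at 31.9 CPM, with 12.7 CPM in the next. The cellularization gene slam was at 156 CPM in that stage 6 embryo and at 46.1 to 70.5 CPM in the other 4, while halo was at 28.1 CPM, within the 25.1 to 33.1 CPM of the other 4, and bnk at 0.546 CPM, within their 0 to 1.66 CPM. In stage 8 embryo B, CG14427 was at 48.6 CPM, with 31.4 CPM in the next. Causes were not tested.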

How the results depend on the processing

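Fits on only the 2 stages compared called 10 genes lower at stage 10, and 3 lower and 0 higher at stage 15, because their low-count filter kept only 10 and 3 of the 17 genes; all of those were called. No other setting moved a count of calls by over 1.5 times. Own-strand counts gave 15 lower at stage 10 (without CG15125), and 6 lower (without CG14014 and CG43725) and 2 higher at stage 15, and DESeq2 gave 16, 7 (without CG43725) and 2. Leaving out each embryo gave 15 to 16 lower at stage 10 (15 without stage 6 embryo B or G) and 6 to 8 lower at stage 15. The thresholds chose 18 genes after TMM scaling, 16 by medians, 24 with the fold loosened to 3, 12 with it raised to 10, and 17 on own-strand counts, which replaced CG15125 by CG14915. The stage 15 against 10 change of CG14014, -2.79 with edgeR adjusted p = 0.0122, was not called on own-strand counts (-2.05) or without stage 10 embryo H (-2.32, edgeR adjusted p = 0.0575). With a replicate block by title letter the calls were 16, 8 and 2, as without it. Same-letter embryos correlated at -0.058 to 0.204 between stages 6 and 10 and -0.039 to 0.133 between stages 10 and 15. The same-letter value was above all others for B and D between stages 6 and 10 and for H between stages 10 and 15. For the remaining letters it was not. At stages 13 and 15 alike, the non-directional libraries were those lettered A, B, F and G. These values do not settle whether letters mark pairs, and the main fit used none. The median change of all genes was 0.11 between stages 15 and 10, and 0.188 with DESeq2's size factors. At the median depth a gene under 1 CPM rests on fewer than 5 reads, so late levels carry large counting error.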
